A study of Populus trichocarpa and Populus tremula x Populus alba with 22 samples.

Results

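A set of 172 genes, of 42950 in the tables, rose without iron in both young leaf and 3rd internode of poplar. A gene was taken where its L, the log2 of the ratio of the mean of the Fe-deprived libraries plus 1 to the mean of the control libraries plus 1, was at least 1 in each of the 2 tissues. Its mean over the 6 libraries of a table also had to be at least 50, and its lowest Fe-deprived value had to lie above its highest control value, in each table. The iron response therefore chose these genes and is described here without a test, while their values in plants overexpressing PtrbHLH011 were not used in the choice and were tested.

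The iron experiment used Populus trichocarpa grown hydroponically for 21 days at 0 µM Fe (Fe deprivation) or 10 µM Fe (control), with 3 libraries per tissue and Fe level. By their labels both tissues came from the same 6 plants, P7, P22 and P30 without Fe and P11, P13 and P17 as controls. The overexpression experiment used 4-month-old Populus tremula x Populus alba carrying the PtrbHLH011 construct or an empty vector, as 3 leaf libraries and 2 stem libraries of each genotype. The control plants of the second experiment are thus also transgenic. Every overexpression library is named DT6-1 and every empty-vector library Ctrl2, and neither the number of independent lines nor the promoter of the construct is stated in the labels, so each genotype may be 1 line.

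Iron is needed for chlorophyll synthesis, for heme and for iron-sulfur proteins, and plants short of it switch on genes for its uptake, chelation, transport and release from stores. In Arabidopsis this response is run by a cascade of basic helix-loop-helix (bHLH) transcription factors, in which some members activate the iron deficiency genes and others restrain them. Arabidopsis bHLH11 is one of the restraining factors. The deposited tables name genes by Potri ID only. No ID matched the RefSeq gene table used here (0 of 42950 IDs), so the 10 lists of iron, chlorophyll and tissue marker genes had no matched member, and the labelled tissues and the level of PtrbHLH011 itself were not checked. Genes are therefore given by ID, with no name or role, and only the few on which the results turn are named.

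Values are normalized counts, that is, counts per gene scaled by 1 factor for each library. The libraries held 26620695 to 68689878 recovered reads, with 28318 to 33012 genes detected by 1 read or more. Gene lengths are not used here, so no order of levels between genes is given, and only the ratio or the profile of neighbouring genes is followed across libraries. In bulk tissue, more RNA per cell and more cells of an expressing type cannot be told apart. The labels call all libraries biological replicates but do not tie those of the overexpression experiment to separate plants, so p-values there measure the spread between these libraries, which may be partly technical.

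In the Fe tables, 918 of the 24590 genes with a mean of at least 50 in young leaf met the rule there (3.73%), and 1157 of 25389 did so in the internode (4.56%). The 172 genes that met it in both were 18.7% of the leaf genes and 14.9% of the internode genes. By limma, 116 of the 172 passed an adjusted p of 0.05 in young leaf, where 3.04% of all 28632 genes tested rose, and 25 passed in the internode, where 0.448% of 29219 rose. These counts follow from the choice of the genes. They also moved with the method: with the replicate number as a block they were 30 in leaf and 47 in the internode, by edgeR 111 and 10, and by DESeq2 161 and 152, and leaving out any 1 library gave as few as 30 in leaf (without P22) and 0 to 81 in the internode (81 without P11). The smallest L of the pair was 1.01, 1.01 and 1.00 for the 3 genes just inside the limit, Potri.014G162400, Potri.012G069200 and Potri.011G167000, and 0.999, 0.998 and 0.998 for the 3 just outside it, Potri.010G138501, Potri.007G053600 and Potri.008G118000.

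Most of the induced genes rose by modest amounts in both tissues. The median L was 1.72 in young leaf, with quartiles of 1.26 and 2.52, and 1.65 in the internode, with quartiles of 1.32 and 2.28. The larger response was in leaf for 94 genes and in the internode for 78. For 99 genes the smaller of the 2 responses was under 1.5, while 37 genes had an L of at least 2 in both tissues and 11 had an L of at least 3. Across the 172 genes the correlation of the 2 responses was 0.76 (Pearson r) and 0.43 (Spearman rho). This describes genes that were picked on both axes, measured in libraries of the same plants.

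**Figure D1:**
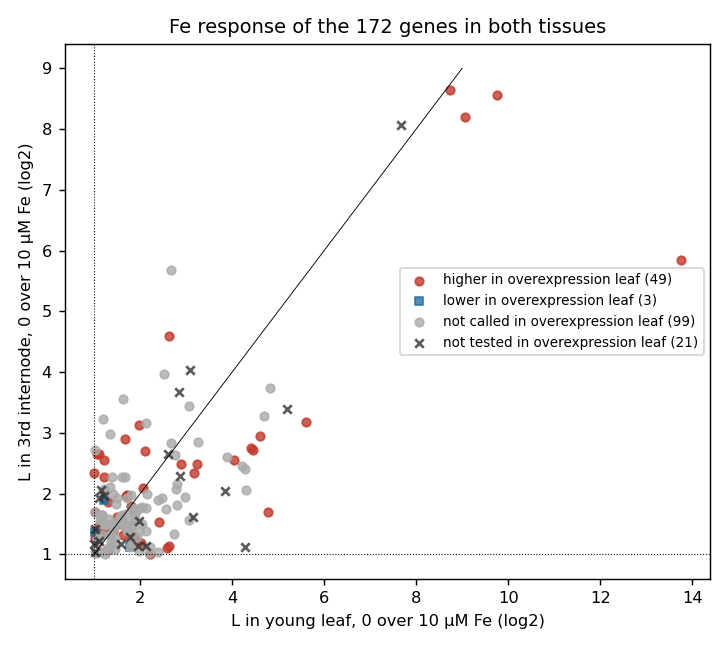
Each point is 1 of the 172 genes, with L (log2 ratio of 0 µM over 10 µM Fe, mean value plus 1) in young leaf on the x axis and in the 3rd internode on the y axis. Colour and shape give the limma call in overexpression leaf, dotted lines the limit of 1, and the solid line equal responses; 5 genes with L of at least 5 in both tissues stand away from the rest.

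Above the rest, 5 genes had an L of at least 5 in both tissues, where the next gene by its smaller L, Potri.002G070100, had 4.82 in leaf and 3.74 in the internode. Potri.005G096200 had the largest leaf response of all. Its values were 60017, 35223 and 22338 in Fe-deprived leaves (plants P7, P22 and P30), against 3.01, 0 and 2.47 in control leaves. In the internode it had 77.4, 132 and 512 without Fe (plants P22, P30 and P7), against 9.57, 0 and 0 in controls. As the rule requires, no Fe-deprived library overlapped the controls. Its L was 13.76 in leaf but 5.85 in the internode.

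Potri.002G055566 and Potri.002G055533 are adjacent in the ID numbering and moved together. Potri.002G055566 had 9507, 6593 and 5707 in Fe-deprived leaves, against 11.1, 0 and 37 in control leaves. In the internode it had 203, 183 and 807 without Fe and 0 reads in all 3 controls, at least 114-fold higher against a floor of 3 reads per library. Potri.002G055533 had 14321, 6603 and 5273 in Fe-deprived leaves, against 4.02, 2.32 and 21.0 in control leaves. Its internode values were 188, 177 and 767 without Fe, against 0 reads in all 3 controls, at least 108-fold higher. The ratio of the value of Potri.002G055533 to that of Potri.002G055566, which depends on their lengths, differed between experiments and also within the Fe experiment. It was 151%, 100% and 92.4% in the Fe-deprived leaves of P7, P22 and P30, and 92.3% to 96.6% in the 3 Fe-deprived internodes. In the control leaves of P11 and P17, where both genes were low, it was 36.4% and 56.7%. In the 3 overexpression leaves it was 3.76% to 10.1%. How the authors' counting split reads between overlapping or near-identical gene models is unknown here, so the 2 may not be separate measurements.

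Potri.005G206901 had 63272, 24527 and 22879 in Fe-deprived leaves, against 36.2, 13.9 and 154 in control leaves. In the internode it had 183, 171 and 528 without Fe and 0 reads in the 3 controls, at least 84.3-fold higher. For these 4 genes plant P7 was the highest of the 3 Fe-deprived plants in both tissues. The remaining gene, Potri.013G101000, had the opposite tissue balance. It had 1362, 4725 and 1909 in Fe-deprived internodes (plants P22, P30 and P7), against 9.57, 17.3 and 0 in controls, and only 7.14, 521 and 82.8 in Fe-deprived leaves (P7, P22 and P30) with 0 reads in the 3 control leaves. Its leaf level in P7 was thus the lowest of the Fe-deprived plants.

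**Figure D2:**
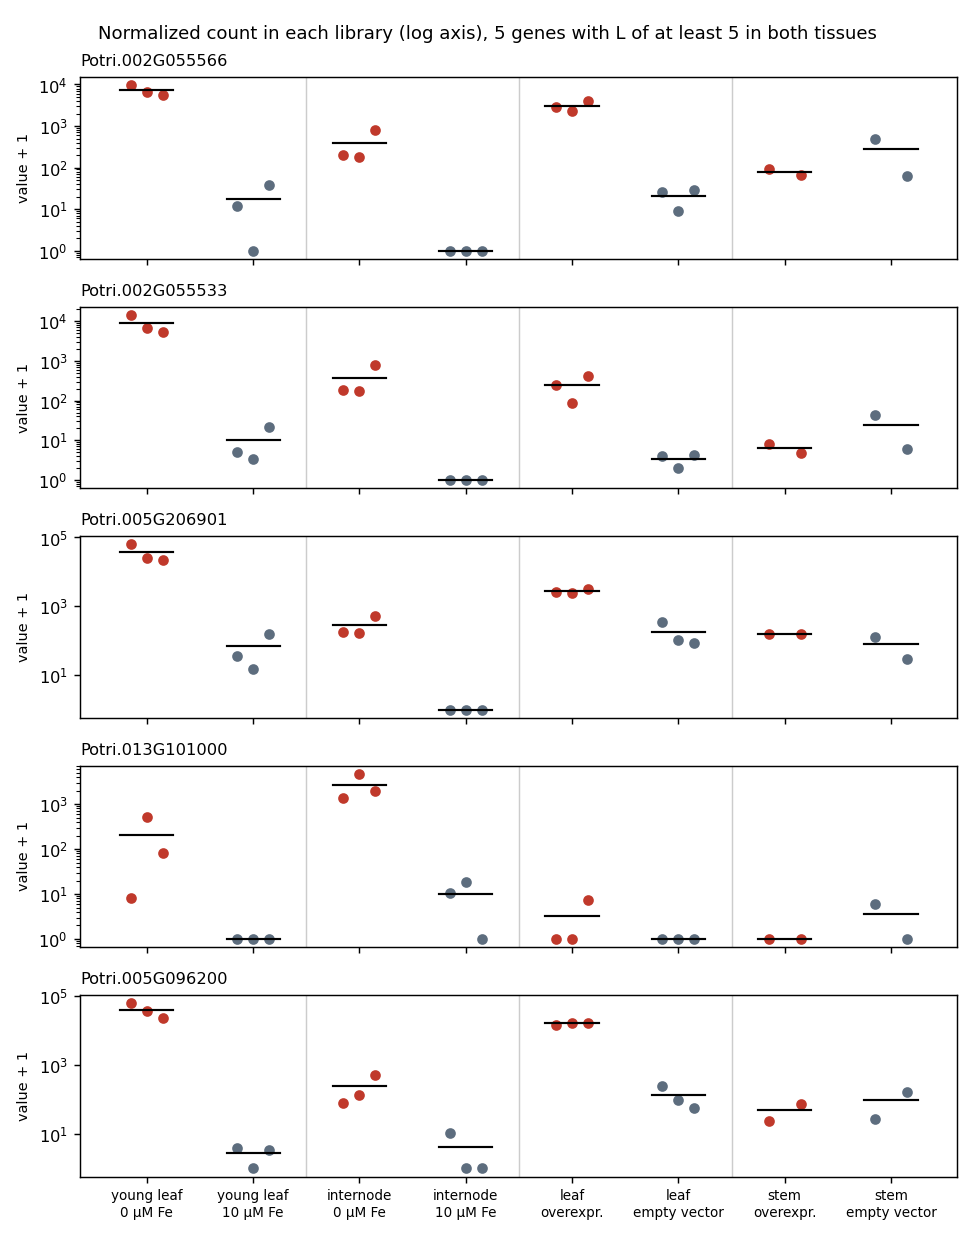
Normalized count plus 1 (log axis) of the 5 genes with L of at least 5 in both tissues, 1 point per library and a line at the group mean, with Fe-deprived and overexpression groups in red and control and empty-vector groups in grey. For 4 of the 5 the overexpression leaves lie above the empty-vector leaves, while Potri.013G101000 stays at 6.53 or below in all 10 overexpression and empty-vector libraries.

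By the numbering in their IDs the genes were spread over all 19 chromosomes and unplaced scaffolds, with 19 genes on chromosome 1, 14 on chromosome 10 and 12 each on chromosomes 4, 6 and 13. Relative to all listed genes of a chromosome the share ran from 0.123% on chromosome 17 to 0.723% on chromosome 19 and 0.721% on chromosome 13. In 14 runs, each member lay within 10 listed IDs of the next, and these runs held 34 of the 172 genes. The longest had 4 genes, from Potri.016G011200 to Potri.016G012150, with L of 1.24 to 2.04 in leaf and 1.48 to 1.78 in the internode.

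Chromosome 13 carried 2 runs of 3 genes, Potri.013G080300 to Potri.013G080500 and Potri.013G082600 to Potri.013G082800. The first had L of 2.67 to 4.30 in leaf and 2.06 to 2.83 in the internode, and the second 2.80 to 3.06 in leaf and 2.16 to 3.67 in the internode. Members of both runs reached high values. Potri.013G080500 had 52729, 28102 and 76156 in Fe-deprived leaves, against 9767, 10014 and 3055 in control leaves. In the internode it had 110637, 104698 and 73888 without Fe, against 25538, 29601 and 13337 in controls. Potri.013G082800 in the second run had a like profile across libraries, with 45501, 29640 and 75500 in Fe-deprived leaves and 112124, 110503 and 74106 in Fe-deprived internodes. Whether reads were shared between such genes was not tested. In overexpression leaf Potri.013G082600 could not be tested, with 0 reads in all 10 libraries of that experiment, and none of the others was called. Their L there was -1.51 to -0.72 in the first run, -1.20 for Potri.013G082700 and -1.68 for Potri.013G082800. The libraries varied widely, as in Potri.013G080300, with 12.4, 57.4 and 181 in overexpression leaves, against 195, 504 and 19.6 in empty-vector leaves. In stem none of the 6 could be tested.

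A pair on chromosome 19 behaved alike in all 4 tables. Potri.019G058000 had 10988, 6705 and 5842 in Fe-deprived leaves, against 216, 188 and 694 in control leaves. Its neighbour Potri.019G058100 had 1178, 2337 and 2187 in Fe-deprived leaves, against 53.3, 31.4 and 147 in control leaves. In the internode L was 2.76 for Potri.019G058000 and 2.94 for Potri.019G058100.

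Summed over the 172 genes, the share of a library's reads was a measure of how much of the transcript pool they took. In young leaf they held 1.31 ± 0.192% of reads without Fe, against 0.280 ± 0.0145% in controls (SD, n = 3 each). In the internode they held 2.19%, 2.32% and 2.10% of reads without Fe, against 0.502%, 0.681% and 0.493% in controls (SD of 0.114 and 0.106, n = 3 each). Neither tissue had an overlap, but the rule builds this in, since each gene was chosen with no overlap. The largest single part in most libraries was Potri.009G030800, at 0.503% of reads in the P30 internode. The median deviation of the 172 genes from the control mean, on the log2(value + 1) scale, was -0.0044 for P11, -0.13 for P13 and 0.13 for P17 in control leaves, and -0.15 for P11, 0.23 for P13 and 0.00 for P17 in control internodes. Without the 2 libraries of P11, 229 genes met the rule, of which 148 were among the 172.

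**Figure D3:**
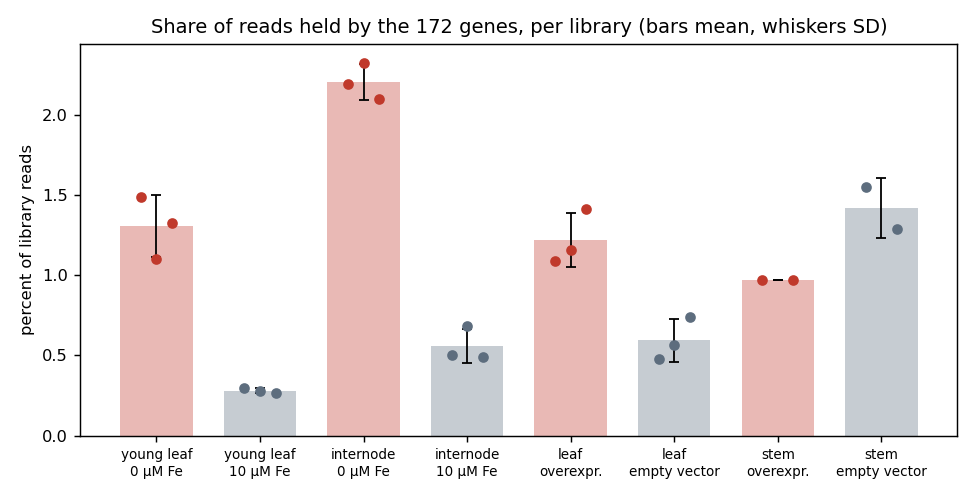
Percent of each library's recovered reads held by the 172 genes, with 1 point per library, bars at the group mean and whiskers of 1 SD (n = 3 per group, n = 2 in overexpression and empty-vector stem). Fe-deprived and overexpression groups stand left of their controls; the share is higher in overexpression leaf and lower in overexpression stem than in the empty-vector plants.

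The overexpression tables compare plants labelled as overexpressing PtrbHLH011 with empty-vector plants, in which the level of that gene was not checked. In leaf, 49 of the 172 genes rose and 3 fell by limma (adjusted p at most 0.05 over 27024 genes), that is 28.5% and 1.74% of the set. Of the 151 members that could be tested, 32.5% rose and 1.99% fell, where 12.7% of all genes tested rose and 8.61% fell. Of the 172, 99 did not pass the test and 21 were too low to be tested. The rises had a median log2 change of 2.22, ran from 0.57 to 8.63, and reached 2-fold for 44 of the 49. All 49 had every overexpression leaf above every empty-vector leaf. Of the 151, 67 genes had all 3 overexpression leaves above and 6 had all 3 below, where 21.9% of all genes tested lay above and 19.1% below.

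The filter on low values bears on these counts. Of the 151 genes tested in leaf, 19 had all 3 overexpression leaves at 10 or more but not all 3 empty-vector leaves. This leans such genes towards a rise, and 9 of the 49 rises were among them. These 9 include Potri.002G055566, Potri.002G055533, Potri.006G129900, Potri.T131500 and Potri.T094100. Of the 126 genes at 10 or more in both groups, 40 rose and 3 fell, where 11% of all 24335 such genes rose and 8.93% fell. Over all 172 genes, tested or not, the median L in overexpression leaf was 0.61, against 0.00 over all 42950 genes. An L of at least 1 was found for 62 of the 172 and for 9.73% of all genes, and an L of at most -1 for 10 of the 172 and for 5.86% of all genes. The median deviation from the empty-vector mean was 0.31, 0.69 and 0.78 in the 3 overexpression leaves, against -0.17, 0.03 and 0.11 in the 3 empty-vector leaves. The set held 1.22 ± 0.170% of reads in overexpression leaves, against 0.595 ± 0.134% in empty-vector leaves (SD, n = 3 each), and the groups did not overlap. Within this, Potri.009G030800 alone held 0.419%, 0.305% and 0.487% in overexpression leaves, against 0.169%, 0.166% and 0.244% in empty-vector leaves. Its own change did not pass the test (log2 change 0.85 ± 0.31 SE, limma adjusted p = 0.0864).

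The share of rises did not follow the iron response in order. Of the 37 genes with L of at least 2 in both Fe tables, 15 rose in overexpression leaf and 0 fell, with a median L of 1.58 there. Of the 36 with a smaller L of 1.5 to 2, 8 rose and 0 fell, with a median of 0.62. Of the 99 under 1.5, 26 rose and 3 fell, with a median of 0.49. The difference between these classes was not tested. Across the 172 genes the correlation of L in overexpression leaf with L without Fe was 0.41 (Pearson r) and 0.12 (Spearman rho) for young leaf, and 0.44 and 0.17 for the internode.

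Of the 5 genes that stood apart, 4 rose in overexpression leaf. Potri.005G096200 had 13911, 16574 and 16228 in overexpression leaves, against 238, 92.5 and 56.5 in empty-vector leaves (log2 change 7.16 ± 0.45 SE, limma adjusted p = 0.000196). Potri.002G055566 had 2798, 2306 and 4114, against 24.7, 8.13 and 27.2 (7.31 ± 0.44 SE, limma adjusted p = 0.000196). The adjacent Potri.002G055533 had 251, 86.6 and 415, against 3.08, 1.02 and 3.26 (limma adjusted p = 0.000909). Both of these adjacent genes were tested only because the overexpression leaves reached 10. The log2 change of Potri.002G055533 was 6.51 with a pseudocount of 0.1 and 4.86 with 5. Potri.005G206901 had 2546, 2420 and 3289, against 338, 106 and 87.0 (4.21 ± 0.46 SE, limma adjusted p = 0.00116). In each of the 4 the groups were far apart. Potri.013G101000 was too low to be tested, at 6.53 in 1 overexpression leaf and 0 reads in the other 5 leaves.

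The largest fitted log2 changes in leaf were those of Potri.T131500 and Potri.006G129900, both tested only because the overexpression leaves reached 10. Potri.T131500 had 5692, 5446 and 10012 in overexpression leaves, against 8.22, 30.5 and 16.3 in empty-vector leaves (log2 change 8.63 ± 0.44 SE, limma adjusted p = 0.00012). Its leaf values in the Fe experiment were 21633, 18409 and 20858 without Fe, against 4615, 6405 and 4481 in controls, with an L of 1.97 in leaf and 3.13 in the internode. Potri.006G129900 had 347, 305 and 881 in overexpression leaves, against 0, 3.05 and 0 in empty-vector leaves (limma adjusted p = 0.000386). The size of its log2 change is set by the pseudocount, at 10.49 with 0.1 and 6.29 with 5. It had 54.0, 99.4 and 118 in Fe-deprived young leaves, against 4.02, 12.8 and 24.7 in controls, with an L of 2.63 in leaf and 4.59 in the internode.

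The 3 genes that fell in overexpression leaf were Potri.012G078700, Potri.015G027700 and Potri.002G034400. Potri.012G078700 had 73.3, 68.1 and 68.1 in overexpression leaves, against 609, 501 and 447 in empty-vector leaves (log2 change -2.86 ± 0.18 SE, limma adjusted p = 0.000208). Potri.015G027700 (-1.27 ± 0.37 SE, limma adjusted p = 0.0468) and Potri.002G034400 (-0.77 ± 0.23 SE, limma adjusted p = 0.0471) were near the threshold. Without 1 library, 1 to 3 genes were called as falling, and Potri.012G078700 kept its call in each of those fits.

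**Figure D4:**
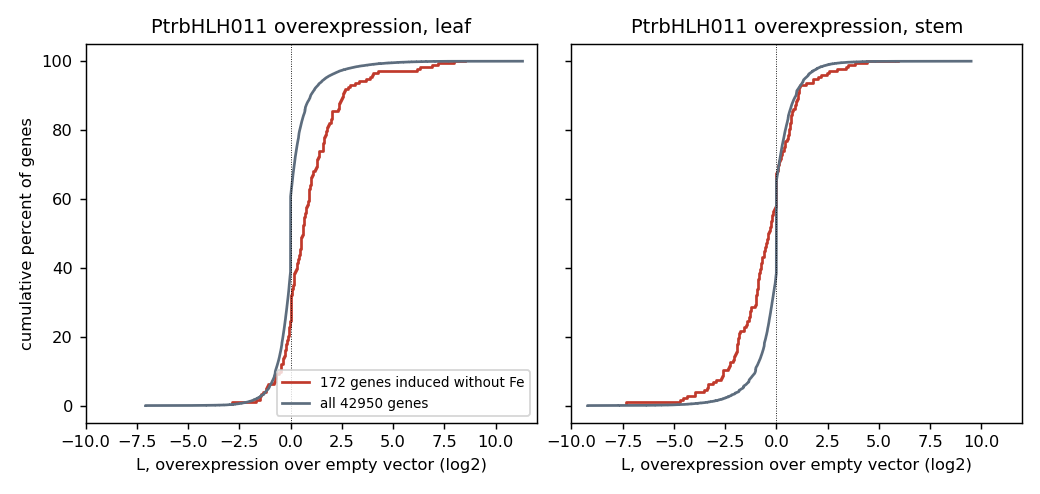
Cumulative percent of genes (y axis) against L, the log2 ratio of the overexpression mean to the empty-vector mean with 1 added to each (x axis), for the 172 genes in red and all 42950 genes in grey, in leaf and in stem. The red curve lies to the right of the grey one in leaf, with medians of 0.61 and 0.00, and to the left of it at values under 0 in stem, with medians of -0.35 and 0.00.

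In stem the picture turned. There, 16 of the 172 genes rose and 35 fell by limma (adjusted p at most 0.05 over 24810 genes), that is 9.30% and 20.3% of the set and 12.8% and 28% of its 125 members that could be tested. Of all genes tested, 20% rose and 17.2% fell. A further 74 did not pass the test and 47 were too low to be tested. Among the members tested, 6 had both overexpression stems at 10 or more but not both empty-vector stems. These 6 held 3 of the 16 rises. In the reverse class were 8 genes, with 3 of the 35 falls. Of the 108 genes at 10 or more in both groups, 13 rose and 32 fell, where 20.8% of all 22629 such genes rose and 17.3% fell. Of the 125, 33 had both overexpression stems above and 58 had both below, where 37.2% of all genes tested lay above and 36.9% below. An L of at least 1 was found for 21 of the 172 and for 8.56% of all genes, and an L of at most -1 for 52 of the 172 and for 11% of all genes. The median L over all 172 genes was -0.35, against 0.00 over all genes. It was -0.052 without empty-vector stem replicate 2, and no gene of the set was called without either of the overexpression stems. In those fits limma called 0 genes in the whole table, with 7846 and 7408 at an unadjusted p under 0.05.

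The set held 0.968% and 0.969% of reads in the 2 overexpression stems, against 1.55% and 1.29% in the 2 empty-vector stems. Most of this came from 1 gene, Potri.002G034400, at 0.669% and 0.612% of reads in overexpression stems, against 1.19% and 0.944% in empty-vector stems. Its own change did not pass the test (log2 change -0.78 ± 0.26 SE, limma adjusted p = 0.0649).

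The largest rises in stem were those of Potri.T094100 and Potri.T012732. Potri.T094100 had 51.5 and 67.4 in overexpression stems and 0 reads in both empty-vector stems, at least 19.5-fold higher (limma adjusted p = 0.00218). It was tested in stem only because the overexpression stems passed the filter on low values, which leans it towards a rise. With no filter the limma adjusted p was 0.00706. In leaf Potri.T094100 had 1485, 886 and 1418 with overexpression, against 15.4, 25.4 and 4.35 with the empty vector (log2 change 6.54 ± 0.55 SE, limma adjusted p = 0.00044). There too it was tested only because the overexpression leaves passed the filter. Potri.T012732 had 4521 and 5696 in overexpression stems, against 245 and 229 in empty-vector stems (log2 change 4.41 ± 0.14 SE, limma adjusted p = 0.000941). Both rose in leaf and in stem.

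Among the falls in stem, Potri.019G050200 had 0 reads in both overexpression stems, against 12.3 and 307 in empty-vector stems, at least 54.5-fold lower than their mean (limma adjusted p = 0.025). It was tested only because the empty-vector stems passed the filter on low values, which leans it towards a fall. The 2 empty-vector stems differed widely in this gene, and the call was lost with a pseudocount of 5 (limma adjusted p = 0.0574), with no filter (0.0531) and without either overexpression stem (0.179 and 0.184). Potri.008G155900 had 56.5 and 14.4 in overexpression stems, against 1017 and 668 in empty-vector stems (log2 change -4.79 ± 0.61 SE, limma adjusted p = 0.00409). In the Fe-deprived internode the same gene had 3151, 3621 and 3173, against 505, 1515 and 600 in controls.

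Of the 4 genes with the strongest iron response that rose in overexpression leaf, none was called in stem. Potri.005G096200 had 22.8 and 71.2 in overexpression stems, against 25.6 and 166 in empty-vector stems (limma adjusted p = 0.602). Potri.002G055566 had 92.1 and 65.5, against 484 and 61.6 (limma adjusted p = 0.359, and 0.0108 with a log2 change of -2.62 without empty-vector replicate 2). Potri.005G206901 had 155 and 153, against 127 and 29.3 (limma adjusted p = 0.165, and 0.0317 with a log2 change of 2.35 without empty-vector replicate 1). Potri.002G055533 was too low there to be tested.

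The effect of overexpression in leaf was set against that in stem directly, as the leaf minus stem difference of the log2 changes, over 23372 genes in limma. Of the 172 genes, 118 could be tested. The effect was higher in leaf for 49 and lower for 8, while 17.3% of all genes tested were higher, 18.8% lower and 36.2% called in either direction. The remaining 61 did not pass the test. The difference was 8.46 ± 1.06 (SE) for Potri.002G055566 (limma adjusted p = 0.000517), 7.84 ± 1.09 for Potri.005G096200 (limma adjusted p = 0.000825) and 2.90 ± 0.88 for Potri.005G206901 (limma adjusted p = 0.0282). That fit does not pair plants and takes a common spread for both tissues.

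Among the genes called in both tissues, 13 rose in leaf and fell in stem, 5 rose in both, 1 fell in leaf and rose in stem, and 0 fell in both, of 118 tested in both tables. Of all 23372 genes tested in both, 2.97% rose in leaf and fell in stem, 1.51% rose in both, 2.45% fell in leaf and rose in stem, and 1.07% fell in both. The difference was called for all 13 of the first kind. Their L ran from 0.88 to 7.99 in overexpression leaf and from -3.32 to -0.40 in stem, and Potri.006G129900 and the chromosome 19 pair were among them. Of these 13, Potri.006G129900 and Potri.019G128600 passed the filter on low values in leaf only through the overexpression leaves. Of the 5 that rose in both, Potri.013G041600, Potri.009G107100 and Potri.T094100 passed it in stem only through the overexpression stems. This leans such genes towards a rise. The percents of all genes were not limited to genes that passed the filter in both groups. Potri.006G129900 had 152 and 81.8 in overexpression stems, against 870 and 921 in empty-vector stems (log2 change -2.99 ± 0.29 SE, limma adjusted p = 0.00216). Potri.019G058000 had 1380, 1472 and 1753 in overexpression leaves, against 459, 204 and 170 in empty-vector leaves. In stem it had 382 and 327 with overexpression, against 1591 and 1399 with the empty vector. No library of one genotype overlapped the other in either tissue. The 1 gene that fell in leaf and rose in stem was Potri.012G078700, with 9222 and 9210 in overexpression stems, against 5985 and 5266 in empty-vector stems.

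**Figure D5:**
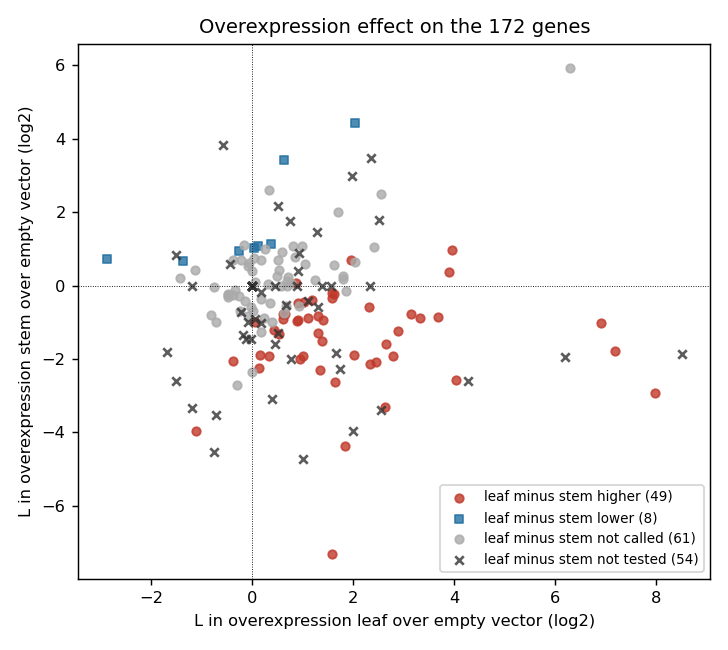
Each point is 1 of the 172 genes, with L (log2 ratio of overexpression over empty vector, mean value plus 1) in leaf on the x axis and in stem on the y axis. Colour and shape give the limma call of the leaf minus stem difference, and the 49 genes called higher in leaf fill mainly the lower right of the plot.

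Genes that met the rule in 1 tissue only are given for comparison, with no test of the difference. In overexpression leaf, 28.5% of the 172 genes rose and 1.74% fell, against 19.6% and 6.70% of the 746 genes that met the rule in young leaf only and 13.4% and 5.69% of the 985 that met it in the internode only. In overexpression stem, 9.30% of the 172 rose and 20.3% fell, against 28.7% and 9.12% of the young leaf genes and 7.92% and 35% of the internode genes. These percents count untested genes as not called. In the same order, 151, 679 and 777 genes were tested in leaf, where 49, 146 and 132 rose and 3, 50 and 56 fell. In stem 125, 571 and 805 were tested, where 16, 214 and 78 rose and 35, 68 and 345 fell. Of all genes tested, 12.7% rose and 8.61% fell in leaf, and 20% rose and 17.2% fell in stem.

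Of the 172 genes, 9 had 0 reads in all 10 libraries of the overexpression experiment, where a count of 0 allows up to 3 reads per library and covers counting error only. A further 5 had 0 reads in all 4 stem libraries. Each of the 172 had at least 1 read in every Fe-deprived library, which the rule that chose them requires. The overexpression plants are of another species than the Fe plants and the gene IDs are those of Populus trichocarpa models. The part this has in the zeros was not tested.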

How the data were processed

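The authors deposited 1 signal value per gene and library, counts that they had normalized, per the names of the tables, with 1 table for each tissue of each experiment. The submitters' processing notes list, with no roles, DESeq2 2.11.40.7, StringTie 2.2.1 and HISAT2 2.2.1. Genome build, annotation and strand setting: not given in the sources used here. The 2 experiments used different RNA kits and platforms (poly(A)-selected Illumina for Fe, strand-specific DNBSEQ for overexpression), per the labels' protocols, and were not fitted together. Dividing each library by its smallest value above 0 gave whole numbers within 0.001 for 100% of values, and these are the reads used for depths, shares and the count tests. In the 3 libraries where that smallest value lies nearest to 1, this check says little and the reads are less certain.

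The test was limma 3.58.1 in R 4.3.3, two-sided, on log2(value + 1) with a mean-variance trend, with Benjamini-Hochberg adjustment over all genes tested and a threshold of 0.05. Genes were tested at a value of at least 10 in 3 libraries, or 2 for stem, the size of the smaller group. A log2 change with an SE is from this fit, while L is the ratio of means, and both understate the change of low genes. The leaf and stem tables were normalized apart, and the tissue term of the joint fit absorbs this. edgeR 4.0.16 and DESeq2 1.42.0 on the reads, other pseudocounts, filters and scalings, a block for the replicate number and omission of each library in turn were alternatives. The limma step was tested on simulated data.

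The genes and lists were chosen with earlier results of these data known. Genes were named by a rule: the largest smaller L of the Fe tables, the largest called change per direction in each overexpression table with no overlap between groups, and the genes at the limit of L. Since IDs have no names, the rule was shortened to 5 genes for the first, and to 2 per direction for the second. The 3 genes that fell in leaf are all named. The genes of the runs, Potri.009G030800 and Potri.002G034400 were chosen after their values were seen. Promoter motifs were not analysed here, since no sequence was used.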

Additional observations from a re-analysis of the deposited data

Results flagged for a closer look

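By limma's test of the leaf minus stem difference, the effect of overexpression was unequal in the 2 tissues for 57 of the 172 genes, 118 of which could be tested, where 36.2% of all genes tested were called. Of the named genes, the leaf effect was higher than the stem effect for Potri.006G129900 (leaf minus stem log2 11.15), Potri.002G055566 (8.46), Potri.005G096200 (7.84), Potri.019G058000 (4.67), Potri.019G058100 (4.00) and Potri.005G206901 (2.90). It was lower for Potri.012G078700 (-3.58), Potri.T012732 (-2.33) and Potri.015G027700 (-2.06). For Potri.T012732 both tissues rose, with an L of 2.03 in leaf and 4.42 in stem. Potri.006G129900 and Potri.002G055566 passed the filter on low values in leaf only through the overexpression leaves. For Potri.006G129900, near 0 in empty-vector leaves, the size depends on the pseudocount. So does that of Potri.019G050200, at 7.66 with a pseudocount of 1, since it had 0 reads in both overexpression stems, against 12.3 and 307 in empty-vector stems. Groups of 2 or 3 libraries are too small for a check of single outlying libraries.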

How the results depend on the processing

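The set was 160 to 213 genes without any 1 library, 229 without both libraries of plant P11 (148 of them shared, an alternative chosen after seeing the data), and 37 with L of at least 2. In overexpression leaf 38 to 67 genes rose without any 1 library and 1 to 3 fell, and 1 fell with a pseudocount of 0.1 or no filter. In stem 0 to 17 rose and 0 to 38 fell, with 0 of either without overexpression replicate 1 or 2, where the single remaining library is taken to vary as the empty-vector ones do. The difference between tissues was called for 43 to 65 genes. The leaf median was 0.49 to 0.68 and the stem median -0.45 to -0.052 without any 1 library, and the stem median was -0.29 with a pseudocount of 5, -0.29 with quantile normalization and -0.39 with upper-quartile scaling. With a replicate block, 61 genes rose and 3 fell in leaf, 24 rose and 45 fell in stem and 68 differed between tissues. Same-numbered leaf libraries had correlated deviations of 0.29, 0.05 and 0.11, so the numbers are not taken as pairs there. The 2 stem pairs had 0.07 and the crossed stem pairs -0.07. With 2 libraries per group these values mirror each other, so they cannot show whether the stems are paired. By their library names, replicate 2 of overexpression stem and replicate 2 of empty-vector stem carry different numbers. The stem block thus follows the replicate numbers of the titles only. In the internode same-numbered libraries correlated at 0.27, 0.12 and 0.48. Without any 1 library the stem change of Potri.005G096200 ran from -2.01 to 0.64 (positive without overexpression replicate 1, at 0.12, or empty-vector replicate 2), and that of Potri.002G055566 from -2.62 to 0.33 (positive without empty-vector replicate 1). None of the positive values was called, and the cause was not tested. Depth limits the genes at 0 reads.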
